A study of Mus musculus with 4 samples.

Results

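The genes described here are 40 genes of the cell cycle, from the cyclins that carry a cell out of G1 to the motors that pull the daughter cells apart, chosen by name from a list and measured in the lumbar spinal cord of 4 mice. They were carried by 53 of the 55681 probes on the array, and 38 of the 40 could be tested among 29111 genes and named transcripts. The mice were male, outbred ICR animals of 8 weeks. In 2 of them the L5 spinal nerve was tied with silk (spinal nerve ligation, SNL), and in the other 2 the nerve was laid bare and not tied (sham). All were killed at 10 days and perfused with saline, and neither group carried a transgene or received a drug according to the labels. Segments L4 to L5 were collected per the protocol, while the sample label names L5 only, and the sources used here do not give the side. Each mouse gave 1 RNA sample and 1 array, so every error below rests on 2 mice per group.

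A cell that divides passes through G1, copies its DNA in S phase, and separates the copies in mitosis. D-type and E-type cyclins release E2F transcription factors, which switch on genes for DNA replication, and a later wave of genes for mitosis is held down in resting cells by a repressor complex that binds a short promoter element called CHR. In the dorsal horn, microglia are known to divide in the first days after a peripheral nerve is injured, and oligodendrocyte precursors divide at a low rate in the adult cord. The comparison asks whether transcripts of dividing cells stood above the sham level at day 10.

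No member differed between SNL and sham after adjustment in limma, and 29 of the 38 tested members (76.3%) lay below sham in SNL, against 45.1% of all genes tested. The median change over the members was -0.17 on the log2 scale, where the median over all genes was 0.028. With normexp background correction, a model of the background in place of the scanner software's own, 22 of the 38 (57.9%) lay below sham, against 39.9% of all genes, and the members' median was -0.066 against 0.067. The lower side held Mki67, the classical marker of dividing cells, at -1.09, together with Ccna2, Top2a and Bub1b. The higher side was led by Rrm2 at 0.89 and Mcm6 at 0.53, which serve DNA synthesis. Among negative regulators of the cycle, the inhibitor Cdkn1a stood 4.75-fold higher in SNL, at an adjusted p of 0.0878 in limma. That call depended on the setting: the adjusted p was 0.0447 when dim probes were kept in and 0.00313 when limma's trended, robust variance was used, and ran up to 0.500 over all alternatives.

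On the arrays, 82.1% and 81.9% of spots were well above background in sham against 74.9% and 78.1% in SNL, and none was saturated. Both SNL arrays thus detected less than either sham array. Over genes, a description since genes share their array, r was 0.991 between the sham arrays and 0.988 between the SNL arrays. All 4 arrays lay on 1 slide, the sham arrays in positions that share one index of the slide and the SNL arrays in positions that share the other, so position on the slide and group cannot be told apart. The neuron, astrocyte and mature oligodendrocyte markers tested were well above background, as the labelled tissue requires. It is a bulk sample, so fewer cells of a type and less RNA per cell cannot be told apart. Values below are log2 processed intensity minus the 75th percentile of the array, so a value of 0 lies at that percentile. Such values are compared between mice for 1 probe at a time, not between probes. Summed levels add the linear values of a list, so the brightest probes of the list weigh most.

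Promoters of 4 members are shown as examples of the CHR and E2F elements. Those of Mki67, Top2a and Bub1b hold the CHR element, TTTGAA, read on both strands and set in capitals, and that of Mcm6 has capitals for an E2F element. The elements do not divide the lower from the higher members: Mcm3 and Mcm5, which were lower, held an E2F match and no CHR match, and Rrm2, which was higher, held neither. RefSeq promoter windows on GRCm38.p6, from 250 bases before to 50 bases after each gene's start, were matched for 33 of the 40 genes. The windows are Mki67 at chr7:135716330-135716629 on the minus strand, Top2a at chr11:99024140-99024439 on the minus strand, Bub1b at chr2:118597961-118598260 on the plus strand and Mcm6 at chr1:128359656-128359955 on the minus strand.
Mki67: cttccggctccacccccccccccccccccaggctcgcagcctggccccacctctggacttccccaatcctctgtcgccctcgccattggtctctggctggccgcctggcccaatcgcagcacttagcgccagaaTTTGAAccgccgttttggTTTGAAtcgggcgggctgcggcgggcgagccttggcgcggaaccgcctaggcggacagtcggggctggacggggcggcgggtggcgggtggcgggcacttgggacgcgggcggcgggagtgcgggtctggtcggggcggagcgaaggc
Top2a: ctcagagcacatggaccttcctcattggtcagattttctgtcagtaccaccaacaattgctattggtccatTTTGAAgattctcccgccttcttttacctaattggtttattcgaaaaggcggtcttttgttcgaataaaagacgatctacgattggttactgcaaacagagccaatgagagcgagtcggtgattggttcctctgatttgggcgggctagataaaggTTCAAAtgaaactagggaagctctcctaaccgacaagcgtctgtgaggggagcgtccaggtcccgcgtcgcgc
Bub1b: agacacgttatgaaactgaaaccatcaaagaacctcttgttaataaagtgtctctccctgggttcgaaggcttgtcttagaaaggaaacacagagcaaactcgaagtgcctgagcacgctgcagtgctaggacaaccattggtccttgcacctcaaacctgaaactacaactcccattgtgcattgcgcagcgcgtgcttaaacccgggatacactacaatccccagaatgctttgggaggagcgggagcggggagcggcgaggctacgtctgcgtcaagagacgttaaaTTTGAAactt
Mcm6: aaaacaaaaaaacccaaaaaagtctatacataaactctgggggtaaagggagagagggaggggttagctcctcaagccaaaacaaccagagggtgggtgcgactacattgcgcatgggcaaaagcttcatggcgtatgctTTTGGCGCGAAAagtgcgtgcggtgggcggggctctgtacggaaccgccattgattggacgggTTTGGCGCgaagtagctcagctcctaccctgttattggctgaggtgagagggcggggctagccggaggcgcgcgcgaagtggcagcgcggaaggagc

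The CHR letters were in 51.4% of the members' windows (18 of 35) and in 17.9% of all 32851 windows of the same length. The E2F letters searched were TTTCGCGC, TTTGGCGC, TTTCCCGC and TTTGCCGC, again on both strands, and in the Mcm6 window a pair of matches on opposite strands overlap to form one longer run of capitals. They were in 17.1% of the members' windows (6 of 35, those of Cdc6, Cdk1, Mcm3, Mcm5, Mcm6 and Mcm7) and in 2.26% of all windows. The 17 tested members with a CHR match had a median change of -0.27, with 13 of them below sham, and the 15 tested members with a window and no match had a median of -0.15, with 11 below. Both sets therefore lay mostly on the lower side, and the difference between them was not tested. The E2F set held both directions, since Mcm6 is in it beside Mcm3 and Mcm5. The letters CCAAT were searched as well, and were in 82.9% of the members' windows (29 of 35) and in 37.4% of all windows. The 27 tested members with them had a median change of -0.18, with 19 below sham. The 5 with a window and no match had a median of -0.15, with 5 below. These are matches of letters only, not evidence of binding.

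Background flags of the members hardly separated the groups, although over all spots fewer were well above background in SNL. The lowest signal well above background was -7.86 and -7.85 in sham against -6.89 and -7.01 in SNL. The bearing of this on dim probes was not tested. Per array, 38 members had a probe well above background in each sham mouse and 39 in each SNL mouse. The member that made the difference was Nusap1, a protein that bundles spindle microtubules. Its only spot was set aside as uneven on both sham arrays, and with such spots kept it read -0.28 and -0.46 in the sham mice against -0.49 and -0.39, a change of -0.07. Nusap1 was therefore present in all 4 mice at overlapping values, and its sham values were left out for spot quality only. Aurkb, the kinase of the chromosomal passenger complex, was not well above background on any array. The other 38 were well above background on all 4 arrays, so no member was detected in one group and not in the other on grounds of signal.

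At unadjusted p under 0.05, 2 members were higher in SNL, Mcm6 and Rrm2, where 6.67% of all genes tested were. On the lower side there were 9, namely Ccnd1, Ccnd2, Mcm3, Mcm5, Ccna2, Bub1b, Mki67, Top2a and Kif11, where 5.48% of all genes were. After adjustment 0 members passed in limma in either direction, against 0.161% of all genes higher and 0.0103% lower, and the lowest adjusted p of a member was 0.227. In 16 members both SNL mice lay below both sham mice (20.9% of all genes did) and in 5 both lay above (24.9%), while 17 overlapped. The 9 on the lower side became 5 without sham 1, 0 without sham 2, 5 without SNL 1 and 3 without SNL 2, and the 2 on the higher side became 0, 1, 3 and 2. With normexp background correction 5 were lower.

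The precision set what could be seen. The median SE of a member's change was 0.126, and for 34 of 38 members the 95% interval of the change lay within 2-fold either way. By the brightest probe of each gene, Mki67 was the only member whose group means differed by 2-fold or more. A dimmer probe of Tk1 also did, with a change of -1.03. Per mouse, the median over the members was -2.82 and -2.87 in sham against -2.93 and -3.01 in SNL, so both SNL mice sat below both sham mice. Relative to the sham mean, 29 members were lower in SNL 1 and 28 in SNL 2. The sham mice give no yardstick for these counts, since the mean they are compared with is their own. Their counts mirror each other, and show only that sham 1 read below sham 2 in 25 members and above it in 13. The median deviation was -0.15 in SNL 1 and -0.22 in SNL 2. In sham 1 it was -0.036, mirrored as 0.036 in sham 2 for the same reason.

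**Figure D1:**
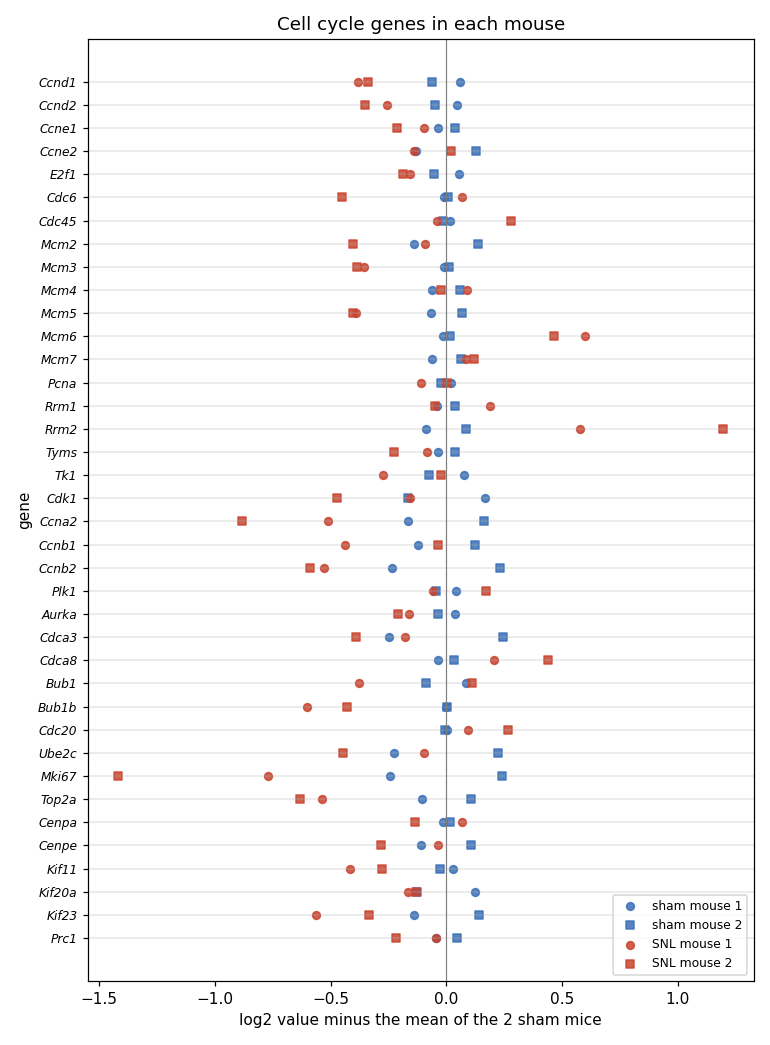
Each row is 1 of the 38 tested genes and each point is 1 mouse, plotted as its log2 value minus the mean of the 2 sham mice. Most red points (SNL) lie left of 0, down to -1.42 for Mki67 in SNL 2, while Rrm2, Mcm6 and Cdca8 lie to the right.

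Cells leaving G1 were represented by 5 members, and all 5 were below sham in SNL, 2 of them at unadjusted p under 0.05, with a median of -0.17. Beside this and the later counts by role and list, 45.1% of all genes lay below sham. At unadjusted p under 0.05, 6.67% of all genes were higher and 5.48% lower. Ccnd1, the cyclin D1 that links growth signals to the G1 kinases, read 0.91 and 0.79 in sham against 0.47 and 0.51 in SNL. The groups did not overlap, and the change was -0.36 ± 0.10 (SE, n = 2 per group, adjusted p = 0.337 in limma). Its relative Ccnd2 read 0.60 and 0.50 in sham against 0.29 and 0.20 in SNL, a change of -0.30 ± 0.10 (adjusted p = 0.396, limma) that shrank to -0.10 with normexp correction. Both D cyclins thus lay lower in each SNL mouse than in either sham mouse. Ccne1, a cyclin E that starts S phase, read 0.77 and 0.84 against 0.71 and 0.59, a change of -0.15 (adjusted p = 0.618, limma), and its dimmer probe showed 0.019. E2f1, the transcription factor released by these kinases, read -0.94 and -1.05 against -1.15 and -1.18, a change of -0.17 ± 0.097 (adjusted p = 0.578, limma). Ccne2 overlapped between the groups, at -0.060, which turned to 0.18 with normexp correction.

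DNA replication was the divided part of the set. Of its 9 genes, 1 was higher and 2 were lower at unadjusted p under 0.05, 4 lay above sham and 5 below, and the median was -0.054. The Mcm genes encode the ring-shaped helicase that is loaded on origins in G1 and opens the DNA in S phase, with Mcm2 to Mcm7 as its subunits. Mcm6 read 0.041 and 0.072 in sham against 0.66 and 0.52 in SNL, so that both SNL mice lay well above both sham mice. The change was 0.53 ± 0.10 (95% interval 0.24 to 0.82), or 1.45-fold, with an adjusted p of 0.227 in limma, and 0.49 with normexp correction. Mcm3 went the other way, with -1.15 and -1.13 in sham against -1.49 and -1.52 in SNL, a change of -0.37 ± 0.089 (adjusted p = 0.293, limma). Mcm5 read -2.40 and -2.27 against -2.73 and -2.74, a change of -0.40 ± 0.10 (adjusted p = 0.309, limma). Subunits of one complex therefore lay on different sides of sham, though none passed after adjustment, and Mcm2 at -0.25, Mcm4 at 0.03 and Mcm7 at 0.10 lay between them. With normexp correction Mcm3 was at -0.19, Mcm5 at -0.41, Mcm2 at -0.065, Mcm4 at -0.067 and Mcm7 at 0.052.

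Pcna, the sliding clamp of the polymerases, gave no such difference. It read 1.78 and 1.74 in sham against 1.65 and 1.76 in SNL, overlapping, with a change of -0.054 ± 0.099 (95% interval -0.34 to 0.23, adjusted p = 0.864, limma). The interval bounds the change without showing that the groups are equal, and normexp correction turned the sign, to 0.12. Cdc6, which loads the helicase, read -5.21 and -5.20 in sham against -5.14 and -5.66 in SNL. Its change was -0.19, while its other probe gave 0.23, so no direction can be given for it. Cdc45, a partner of the helicase, was at 0.12.

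Nucleotide supply was represented by 4 genes, with 1 higher and 0 lower at unadjusted p under 0.05 and a median of -0.040. Rrm2, the small subunit of ribonucleotide reductase and the one whose level follows S phase, read -2.41 and -2.23 in sham against -1.75 and -1.12 in SNL. Both SNL mice lay above both sham mice, and they also differed from each other by more than the sham mice did. The change was 0.89 ± 0.25 (95% interval 0.15 to 1.62), or 1.85-fold, with an adjusted p of 0.348 in limma, and 0.69 with normexp correction. Over the alternatives it ranged from 0.58 without SNL 2 to 1.20 without SNL 1. Rrm1, the large subunit, was at 0.07. Tyms, which makes thymidylate, read -5.17 and -5.10 against -5.22 and -5.36, a change of -0.15 that turned to 0.069 with normexp correction.

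Tk1, the thymidine kinase of dividing cells, depended on the probe. Its brightest probe read -2.92 and -3.07 in sham against -3.27 and -3.01 in SNL, overlapping, with a change of -0.15 that turned to 0.087 with normexp correction. A second probe read -3.81 and -3.67 against -4.49 and -5.06, a change of -1.03, and a dimmer one gave -0.57. All 3 lay on the lower side in the processed signal, by unequal amounts. The brightest probe, used for Tk1 in the counts of members, is annotated to an Ensembl transcript. The probe with the change of -1.03 is annotated to the RefSeq transcript. Probes of Cdca8, a passenger complex subunit, disagreed in sign: the brighter one read -2.74 and -2.67 in sham against -2.50 and -2.27 in SNL, a change of 0.32 ± 0.13 (adjusted p = 0.452, limma), and the other read -3.43 and -3.47 against -3.74 and -3.83, a change of -0.34. In each Cdca8 probe the groups did not overlap, so the disagreement is between probes and not between mice. The probes are 60 bases long, and the first 30 bases of each are given because no annotation of their build places them in the transcript here. On mm9, in the order given, they lie at chr11:117683390-117683449, chr11:117676845-117676904, chr4:124599245-124599304 and chr4:124595809-124595868.
Tk1, brightest probe: ttgggtgtggccgtcattggcatcgatgag
Tk1, probe with the change of -1.03: cctcagctcttagtgagccacttttcttgt
Cdca8, brighter probe: aaagatgccttccatccaagaagagaaccc
Cdca8, other probe: tctcctattctgttgtcatttgtgccctct

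Over all 50 probes of these genes that were well above background on every array, 39 were lower in SNL and 11 higher, and with normexp correction 32 were lower and 18 higher. Of the 9 members with more than 1 such probe, 6 had the same sign in all and 3 did not, namely Cdc6, Cdca8 and Ccne1. Mki67, Mcm3 and Cdk1 were among the 6.

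**Figure D2:**
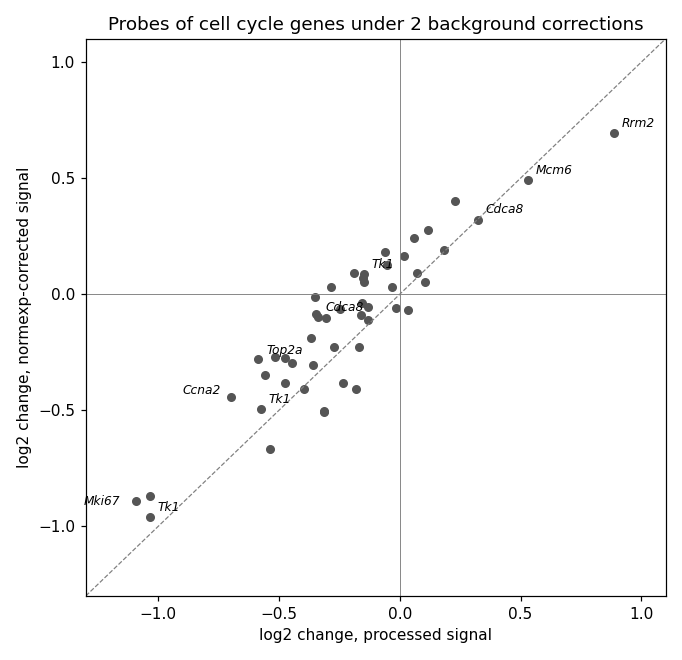
Each point is 1 of the 50 probes well above background on all arrays, with its log2 change (SNL minus sham) in the processed signal on the horizontal axis and after normexp correction on the vertical axis; the dashed line marks equality. Points near 0 cross sides between the corrections, while Mki67 and the second Tk1 probe stay near -1 and Rrm2 and Mcm6 stay above 0.

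The genes of G2 and mitosis were 22, of which 20 were tested. None was higher and 5 were lower at unadjusted p under 0.05, 3 lay above sham and 17 below, and the median was -0.25, or -0.17 with normexp correction. In the 13 tested genes of replication and nucleotide supply, 2 were higher and 2 lower and the median was -0.054. The difference between these sets was not tested.

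Among the kinases and cyclins of G2 and mitosis, 8 of 9 were tested, 1 was lower at unadjusted p under 0.05, and the median was -0.26. Ccna2, the cyclin A of S and G2 phase, read -3.68 and -3.35 in sham against -4.03 and -4.40 in SNL, with no overlap. The change was -0.70 ± 0.20, or 1.62-fold lower, with an adjusted p of 0.352 in limma. Ccnb2, a mitotic cyclin, read -3.86 and -3.39 against -4.15 and -4.21, a change of -0.56 ± 0.20 (adjusted p = 0.414, limma). Cdk1, the kinase these cyclins switch on, read -3.47 and -3.80 in sham against -3.79 and -4.11 in SNL. Its groups overlapped at sham 2 and SNL 1, and the change was -0.31 ± 0.19 (95% interval -0.87 to 0.24, adjusted p = 0.595, limma). The other mitotic cyclin, Ccnb1, was at -0.24, the kinase Aurka at -0.18 and Cdca3, a trigger of mitotic entry, at -0.28. The kinase Plk1 stood at 0.06.

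The spindle checkpoint and the start of anaphase were represented by 4 genes, 1 of them lower at unadjusted p under 0.05, with a median of -0.20. Bub1b, the checkpoint protein BubR1 that delays anaphase, read -5.48 in both sham mice and -6.08 and -5.91 in SNL. The change was -0.52 ± 0.11 (adjusted p = 0.256, limma), and -0.27 with normexp correction. Cdc20, which activates the anaphase-promoting complex, lay on the other side at -2.14 and -2.15 in sham against -2.05 and -1.87 in SNL, a change of 0.18 ± 0.11 (adjusted p = 0.590, limma). Ube2c, the ubiquitin-conjugating enzyme of that complex, read -2.79 and -2.34 against -2.66 and -3.01, overlapping, at -0.27 ± 0.23 (adjusted p = 0.696, limma). The checkpoint kinase Bub1 overlapped as well, at -0.13.

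The largest difference of any member was in the chromosome structure role. Mki67, which coats mitotic chromosomes and is absent from resting cells, read -1.37 and -0.89 in sham against -1.90 and -2.55 in SNL. The SNL mice lay below the sham mice, but the mice of a group also differed, with an SD of 0.34 in sham and 0.46 in SNL. The change was -1.09 ± 0.31 (95% interval -1.99 to -0.19), or 2.13-fold lower, with an adjusted p of 0.346 in limma. Its second probe read -2.29 and -1.80 in sham against -2.66 and -3.50 in SNL, in the same order of mice, a change of -1.03. Over the alternatives the change ranged from -1.42 without SNL 1 to -0.77 without SNL 2.

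Some blood cell markers were, like Mki67, highest in sham 2 and lowest in SNL 2. This held for 3 of 5 tested blood progenitor markers (Mpo, Elane and Gata1), 3 of 3 tested B cell markers and 1 of 3 tested red blood cell markers (Slc4a1), and not for Kit, Cd34, Hba-a1 or Alas2. The neutrophil granule gene Mpo read -2.55 and -2.39 in sham against -2.67 and -3.74 in SNL. None of these markers was at unadjusted p under 0.05. The summed level of the blood progenitor markers was 3.79 and 3.89 in sham against 3.77 and 3.67 in SNL. Most of that sum was Cd34, which read 1.60 and 1.54 in sham against 1.59 and 1.60 in SNL. The sum therefore says little of Mpo, Elane or Gata1. That of the B cell markers ran from 0.11 to 0.26 in sham and from 0.075 to 0.20 in SNL. That of the red blood cell markers ran from 5.25 to 9.65 in sham and from 7.80 to 9.15 in SNL. This order of mice was not counted over all genes, so it cannot be called particular to blood cell markers. It also held for some markers of other cells, such as Nefl, Gpr17 and Aqp4, and for members such as Ccna2, Top2a and Mcm5. The part of blood cells in the Mki67 result was not tested.

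Top2a, the topoisomerase that untangles sister chromatids, read -5.07 and -4.85 in sham against -5.50 and -5.59 in SNL, with no overlap and a closer spread than Mki67. The change was -0.59 ± 0.12, or 1.5-fold lower, with an adjusted p of 0.255 in limma, and -0.28 with normexp correction. The kinetochore motor Cenpe read -2.81 and -2.59 against -2.74 and -2.99, overlapping, at -0.16 ± 0.15 (adjusted p = 0.722, limma), and the centromeric histone Cenpa was at -0.03. All 4 genes of this role lay below sham, 2 of them at unadjusted p under 0.05, with a median of -0.37.

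Among the spindle motors and midzone proteins, all 4 tested of 5 lay below sham and 1 at unadjusted p under 0.05, with a median of -0.25. Kif11, the motor that pushes the spindle poles apart, read -4.28 and -4.34 in sham against -4.73 and -4.59 in SNL. The change was -0.35 ± 0.10 (adjusted p = 0.357, limma), and -0.085 with normexp correction. Kif23, a motor of the cleavage furrow, read -3.75 and -3.46 against -4.17 and -3.94, at -0.45 ± 0.16 (adjusted p = 0.428, limma). Kif20a, a motor of the late spindle, read -2.83 and -3.08 in sham against -3.12 and -3.09 in SNL, so the groups were barely apart at sham 2 and SNL 2, and the change of -0.15 turned to 0.051 with normexp correction. Prc1, which bundles the midzone microtubules, was at -0.13.

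**Figure D3:**
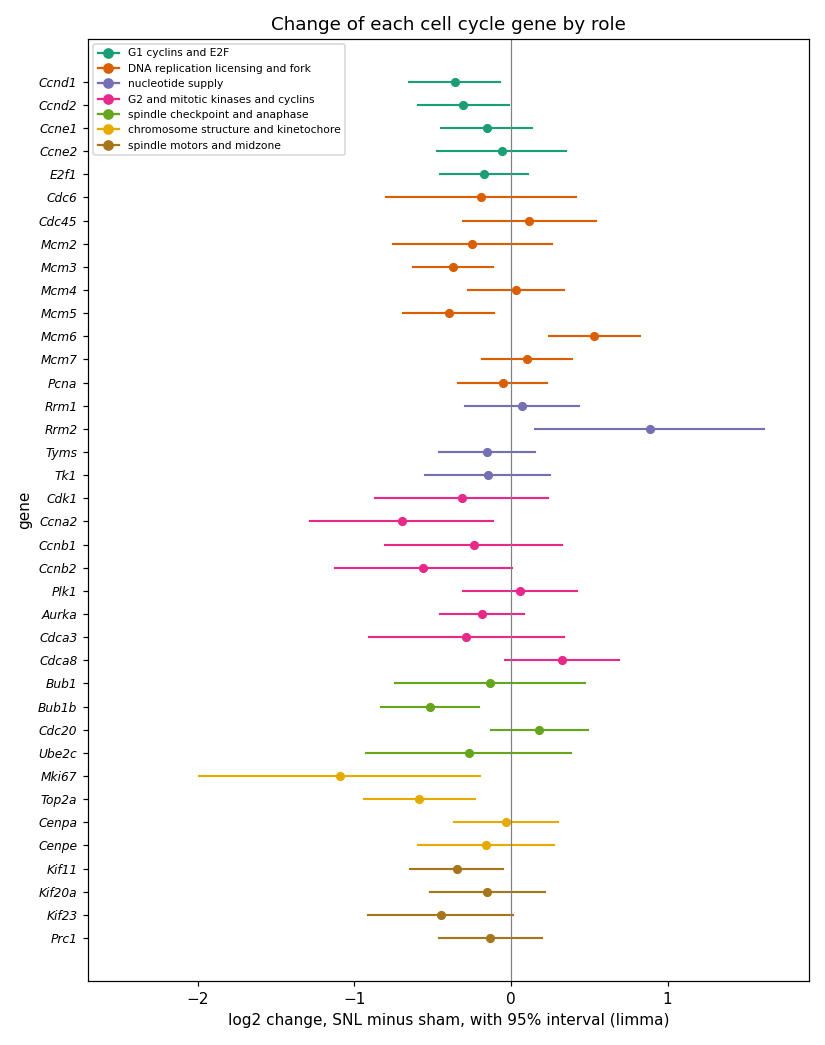
Points give the log2 change (SNL minus sham) of each of the 38 tested genes and bars its 95% interval from limma, coloured by role. Intervals that do not reach 0 belong to 9 genes on the left and to Mcm6 and Rrm2 on the right; all are from 2 mice per group.

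A further 123 genes of the cycle were read from 4 lists, and 117 were tested. None passed after adjustment in limma, and at unadjusted p under 0.05 there were 9 higher and 14 lower. Among all genes tested, 6.67% were higher and 5.48% lower by the same rule. The counts were 5 and 5 without sham 1, 4 and 4 without sham 2, 6 and 6 without SNL 1, and 7 and 10 without SNL 2. After adjustment, Cdkn1a and Pbk passed when dim probes were kept in, and Cdkn1a, Cdkn3 and Kif22 when limma's trended, robust variance was used, while no gene of these lists passed in the other alternatives run.

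The inhibitors lay mostly on the higher side. Of 18, 16 were tested, 5 were higher and 0 lower at unadjusted p under 0.05, 14 lay above sham, and the median was 0.18, or 0.093 with normexp correction. Of all 29111 genes tested, 15974 lay above sham and 6.67% were higher by that rule. The 5 were Cdkn1a, Cdkn1b, Cdkn2a, Btg1 and Ccng1, and without a library the count was 1 (sham 1), 1 (sham 2), 2 (SNL 1) and 3 (SNL 2). Cdkn1a, a kinase inhibitor induced by damage and by differentiation, read -0.998 and -1.40 in sham against 0.96 and 1.14 in SNL, far apart relative to the spread within either group. The change was 2.25 ± 0.19 (95% interval 1.71 to 2.79, adjusted p = 0.0878, limma), or 4.75-fold, and 1.48 as the mean of its probes. It was the one gene among the members and inhibitors that was at unadjusted p under 0.05 in all 15 settings run. Ccng1, a target of Trp53, read 0.91 and 0.77 in sham against 1.21 and 1.18 in SNL (0.36 ± 0.10, adjusted p = 0.348, limma). Btg1, an antiproliferative factor, read 0.92 and 0.96 against 1.25 and 1.29 (0.33 ± 0.090, adjusted p = 0.333, limma), and 0.091 with normexp correction. Cdkn2a, an inhibitor of the G1 kinases, read -6.14 and -6.79 in sham against -2.44 and -4.65 in SNL. Its change of 2.92 ± 0.86 (adjusted p = 0.354, limma) comes with an SD of 1.57 in SNL. Trp53 at 0.068 and Rb1 at -0.062 were near 0.

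Other G1 regulators, 17 of 18 tested, held 1 higher and 1 lower gene, with a median of -0.051. Myc, a transcription factor of growth, read -2.16 and -2.22 in sham against -1.60 and -1.54 in SNL, at 0.62 ± 0.094 (adjusted p = 0.175, limma). E2f8, a repressor of the E2F family whose level follows S phase, read -2.35 and -2.42 against -3.03 and -3.54, at -0.90 ± 0.21 (adjusted p = 0.279, limma). Skp2, which marks Cdkn1b protein for destruction, read -2.22 and -2.23 against -2.49 and -2.36, at -0.19 (adjusted p = 0.542, limma).

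Other DNA replication genes, 39 of 39 tested, held 1 higher (Gins3, 0.28) and 6 lower, with a median of -0.044. The 6 were Uhrf1, Pole2, Orc1, Hells, Pola1 and Dtl. Uhrf1, which carries DNA methylation through replication, read -2.47 and -2.35 in sham against -2.99 and -2.96 in SNL, at -0.57 ± 0.099 (adjusted p = 0.202, limma). Pole2, a subunit of the leading-strand polymerase, read -4.33 and -4.39 against -5.06 and -4.75, at -0.54 ± 0.15 (adjusted p = 0.332, limma). Orc1, of the origin recognition complex, read -6.68 and -6.95 against -7.42 and -7.30. It did not stand well above background in SNL, where the lowest such signal (-6.89 and -7.01) was higher than in sham (-7.86 and -7.85). With its SNL values set to that lowest signal it was 1.09-fold lower in SNL. With normexp correction the change was -0.057, so no least size can be given for it.

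Other mitotic genes, 45 of 48 tested, held 2 higher and 7 lower, with 14 above sham and 31 below and a median of -0.10, or -0.0022 with normexp correction. The 2 higher genes were Cdkn3, a phosphatase that acts on cyclin-dependent kinases, and Kif22, a chromosome-arm motor. Cdkn3 read -1.38 and -1.81 in sham against -0.39 and -0.095 in SNL, at 1.35 ± 0.21 (adjusted p = 0.180, limma). Kif22 read -0.84 in both sham mice and 0.073 and -0.20 in SNL, at 0.78 ± 0.13 (adjusted p = 0.199, limma). The lower genes were Melk, Nek2, Kif4, Kif18b, Pbk, Ect2 and Ncapg, of which Kif18b did not stand well above background in SNL. The change of Kif18b was -1.16 in the processed signal and 0.016 with normexp correction. Its sham values of -7.60 and -7.58 already lay below the lowest signal well above background in SNL (-6.89 and -7.01). Pbk, a mitotic kinase, read -4.63 and -4.72 in sham against -5.51 and -5.56 in SNL, at -0.86 ± 0.096 (adjusted p = 0.126, limma), and -0.40 with normexp correction.

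No marker of microglia, T cells or oligodendrocyte precursors passed after adjustment in limma, and the counts that follow are at unadjusted p under 0.05, by which 6.67% of all genes were higher and 5.48% lower. All 12 microglia and macrophage markers lay above sham in both SNL mice, 10 of them by that rule, with a median change of 0.65 and a summed level of 39.7 and 40.3 in sham against 67.6 and 58.0 in SNL. Of 8 tested T cell markers 4 were higher and 0 lower, with summed levels of 0.45 and 0.43 in sham against 0.49 and 0.53 in SNL. The 4 were Cd3e, Cd8a, Cd8b1 and Cd2, and Cd8b1 was not well above background on either sham array. Most of the sum was Cd4, at 0.16, and Lck, at 0.069, which overlapped between the groups. The sum therefore says little of the 4 higher genes. Of 8 oligodendrocyte precursor markers 1 was higher, Pdgfra at 0.34, and 2 were lower, C1ql1 at -0.77 and Tnr at -0.47, with a median of -0.19 and summed levels of 23.1 and 25.0 against 23.6 and 23.3. The part of any of these cells in the results above was not tested.

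**Figure D4:**
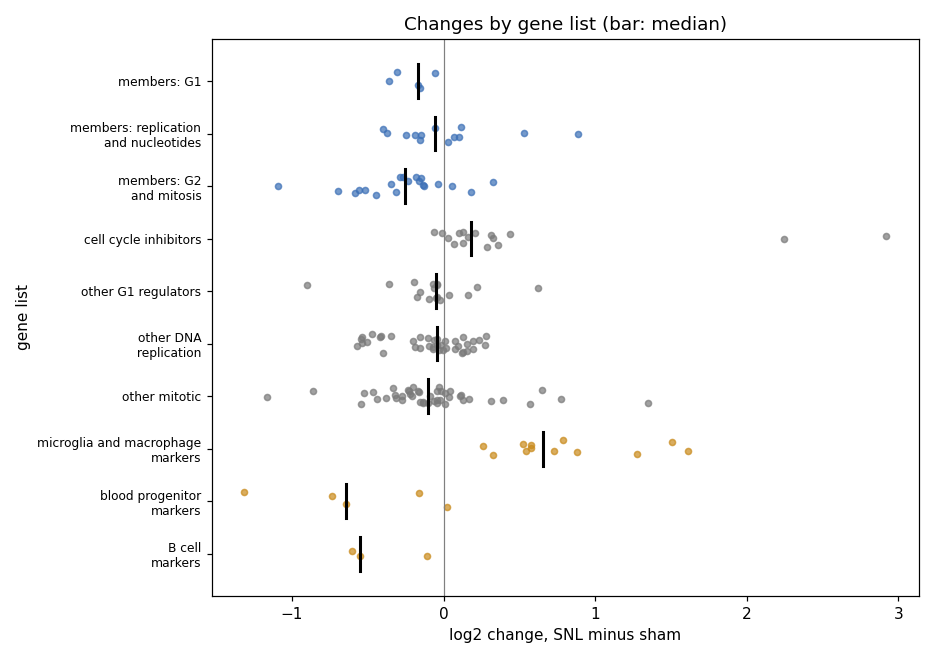
Each point is the log2 change (SNL minus sham) of 1 tested gene, in rows for the members, the related cell cycle lists and 3 marker lists; black bars are medians. The members of G2 and mitosis centre on -0.25, the inhibitors on 0.18 and the microglia and macrophage markers on 0.65.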

How the data were processed

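Per the labels' protocols, total RNA of each mouse was labelled with Cy3 and hybridised to a 1-colour Agilent array. The deposited scanner files hold spot intensity on a linear scale (processed signal), made with Feature Extraction (version 10.7.3.1 by the file headers, but 10.7.1.1 by the submitters' processing notes) on array design 028005 with positions on mm9. The authors' own deposited log2 table served as an alternative. Here log2 intensity was centred on the 75th percentile of 59305 non-control spots, outlier spots were left out and spots of a probe averaged. A gene was tested where 2 or more of the 4 arrays had its brightest probe well above background and all 4 had a value once outlier spots were left out. The comparison of SNL with sham used limma 3.58.1 (R 4.3.3, lmFit and eBayes, no covariate), with Benjamini-Hochberg adjustment over 29111 genes at 0.05. The fit had 2 residual and 1.66 prior degrees of freedom, the median SE over genes was 0.131, and the number of arrays limits the precision. With 2 mice a group, the smallest p of an exact two-sided permutation test is 0.333, and none was run.

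Of 55681 probes, 26762 were named through accession, 3819 through symbol and 639 through synonym in a RefSeq table, and 24461 kept the file's name. Members and lists were chosen with earlier results of these data known. Values per mouse are given for Mki67, Top2a, Cdk1, Pcna and Ccnd1, the 3 members with the smallest p in each role or list, members whose probes differ in sign, and members that differ in background flags. Genes at unadjusted p under 0.05 in a list are named, and Cdkn2a, Trp53, Rb1 and the blood cell markers were chosen after their values were seen. Fits were tested on simulated data. Alternatives covered background correction, normalization, filter, probe choice, variance model, replicate block and each mouse left out.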

Additional observations from a re-analysis of the deposited data

How the results depend on the processing

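With each mouse left out in turn, members higher at unadjusted p under 0.05 numbered 0 to 3, members lower 0 to 5, related genes higher 4 to 7, related genes lower 4 to 10 and inhibitors higher 1 to 3, and the members' median ran from -0.22 to -0.12; an arm with 1 mouse is then assumed to vary like the other. Pcna ranged from -0.11 to 0.0034, above 0 without SNL 1, and Cdc6 from -0.45 to 0.069, above 0 without SNL 2. With normexp correction, members lower numbered 5, inhibitors higher 2 and the members' median was -0.066. The sign turned for Cdc6 (0.089), Pcna (0.12), Tyms (0.069), Tk1 (0.087) and Kif20a (0.051). It also turned for Ccne2 (0.18), Cdca3 (0.029), Cenpa (0.031) and Mcm4 (-0.067), while 29 of the 38 tested members kept their sign. Quantile normalization gave a members' median of -0.25. Averaging a gene's probes left 3 inhibitors higher and turned Cdc6 to 0.019 and Cdca8 to -0.0074. With a variance trend and robust estimation, 1 member passed after adjustment (Mcm6, adjusted p = 0.0452, against 0.0452 to 0.657 over its alternatives), 5 members were lower and 5 related genes were lower, and the related genes Cdkn1a (adjusted p = 0.00313, against 0.00313 to 0.500 over its alternatives), Cdkn3 (0.0265, against 0.0265 to 0.612) and Kif22 (0.0397, against 0.0397 to 0.640) passed. With no filter on dim probes Cdkn1a (0.0447) and Pbk (0.0474, against 0.0474 to 0.592) passed. With the replicate number as a block, 3 members were lower, 9 related genes were lower and 3 inhibitors were higher; deviations of same-numbered mice correlated at -0.027, and the labels state no pairing. No member was called lower after adjustment in any of 14 alternatives. The cause of these shifts was not tested. Keeping outlier spots was chosen after the data were seen. The block for slide or scan was not run, with 1 slide and 1 scan. The signal over background limits Aurkb, Orc1 and Kif18b.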
